A study of Mus musculus with 48 samples.

Results

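Plin4 and Depp1 were listed together with 8 genes known as targets of the glucocorticoid receptor, of FoxO factors or of lipid signals: Sgk1, Fkbp5, Cdkn1a, Pdk4, Tsc22d3, Ddit4, Zbtb16 and Angptl4. Members were taken by gene symbol, and 9 of the 10 had a probe on the array, out of 18312 features (named genes and unnamed probes) in all. Zbtb16 had none and has no value here. Plin4 and Depp1 were chosen by their large and variable difference between genotypes in these same arrays, so their genotype values are a description and carry no test. The question asked of the other 7 genes was whether they followed Plin4 and Depp1 from mouse to mouse. These 7 genes, and the gene lists used below, were also chosen with earlier results of these data known. Their counts beside the share over all features are therefore not independent of these data.

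RNA of striatum and cortex was hybridised to 48 Illumina MouseRef-8 bead arrays, 2 for each of 24 mice. BACHD-ΔN17 mice, which carry a mutant human huntingtin transgene lacking a short stretch at its amino terminus, were set against wild-type mice of the same age, all on the FvB/NJ strain, at 2, 7 and 11 months, with 4 mice of mixed sex in each genotype and age. BACHD-ΔN17 is a model of Huntington's disease, and the labels do not say in which cells the transgene is active or whether mice shared a litter. Separate mice are the replicates. In bulk tissue fewer cells of a type and less RNA per cell cannot be told apart.

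Glucocorticoid hormone binds a receptor that moves to the nucleus and switches on genes such as Sgk1, Fkbp5, Tsc22d3 and Ddit4. FoxO factors are held outside the nucleus by insulin signalling and activate genes of fasting and stress, among them Pdk4, Cdkn1a and Depp1. Perilipins, the family of Plin4, coat the droplets in which cells store neutral lipid, and several of these genes are also raised by fatty acids through PPAR receptors.

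The promoter windows of the pair that chose the list, and the 1 member window with a full glucocorticoid receptor element, are shown because they are where such factors could bind. They are RefSeq windows on GRCm38.p6 running from 250 bases before to 50 bases after an annotated transcript start, written 5′ to 3′ along the gene, with any match to a searched motif in capitals. The Plin4 window is chr17:56109733-56110032 on the minus strand, the Depp1 window is chr6:116650434-116650733 on the plus strand, and the Sgk1 window is chr10:21993640-21993939 on the plus strand.
Plin4: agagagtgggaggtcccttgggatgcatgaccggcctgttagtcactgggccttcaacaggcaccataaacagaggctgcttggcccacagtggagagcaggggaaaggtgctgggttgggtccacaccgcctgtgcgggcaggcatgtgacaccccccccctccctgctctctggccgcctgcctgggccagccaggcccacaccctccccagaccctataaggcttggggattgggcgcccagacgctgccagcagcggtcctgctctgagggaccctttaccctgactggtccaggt
Depp1: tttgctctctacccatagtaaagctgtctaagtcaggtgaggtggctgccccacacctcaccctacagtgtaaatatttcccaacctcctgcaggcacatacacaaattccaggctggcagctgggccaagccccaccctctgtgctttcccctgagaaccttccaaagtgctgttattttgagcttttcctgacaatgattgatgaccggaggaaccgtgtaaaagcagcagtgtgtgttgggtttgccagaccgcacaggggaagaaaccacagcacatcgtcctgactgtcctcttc
Sgk1: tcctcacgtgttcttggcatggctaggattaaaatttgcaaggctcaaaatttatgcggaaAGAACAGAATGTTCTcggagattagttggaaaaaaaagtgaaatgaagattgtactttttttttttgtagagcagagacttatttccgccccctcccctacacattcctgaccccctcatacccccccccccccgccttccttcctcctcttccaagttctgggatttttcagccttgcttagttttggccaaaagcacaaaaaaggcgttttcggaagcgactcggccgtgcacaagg
Windows were found for 8 of the 10 genes, 16 in all, since Sgk1, Cdkn1a and Tsc22d3 have several starts. On both strands, the full element, AGAACA and TGTTCT with any 3 bases between them, lay in 1 of these 16 windows, the Sgk1 window above, where it begins 189 bases before the start, and in 0.00913% of all 32851 windows of that length. Its core ACANNNTGT, which the full element contains, lay in 2 member windows, both of Sgk1, and in 6.85% of all windows. The FoxO motif GTAAACA lay in none of the 16 windows and in 3.65% of all, and the PPAR motif, AGGTCA repeated after any 1 base, in none and in 0.0396%. A match is a run of letters and not a measured site, and nothing follows from the windows without one.

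Values are log2 intensities after background correction and quantile normalization. Median intensity before correction ran between 211 and 283 over the arrays, and between 12477 and 14378 probes were detected per array. Each array has a running sample number in the labels, and the 8 lowest numbers were among the dim arrays, with medians up to 237. They hold 2 BACHD-ΔN17 and 2 wild-type cortex arrays of the 11-month groups. The markers bore out the tissue labels: 7 striatal projection neuron markers summed to 48763 to 104412 intensity units in striatum and 3839 to 8587 in cortex. The 7 cortical excitatory markers summed to 660 to 4186 in striatum and 22096 to 35439 in cortex, with Neurod6 undetected on all 48 arrays. At 11 months the striatal neuron sum in striatum was 48763 to 52315 in BACHD-ΔN17 mice and 90941 to 101654 in wild-type mice.

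Plin4, a perilipin that coats lipid droplets, was the most variable of the listed genes. In striatum at 2 months its log2 intensity was 6.46, 6.63, 6.06 and 5.50 in BACHD-ΔN17 mice, against 6.70, 5.60, 7.52 and 6.28 in wild-type mice. At 7 months it was 9.97, 8.89, 10.32 and 7.30 in BACHD-ΔN17 mice, against 9.26, 7.66, 8.82 and 6.04 in wild-type mice. At 11 months it was 10.52, 9.31, 11.01 and 11.46 in BACHD-ΔN17 mice, against 6.21, 6.71, 6.66 and 7.07 in wild-type mice. The groups overlapped at 2 and 7 months, and at 11 months every BACHD-ΔN17 value lay above every wild-type value. The 11-month difference was 3.91 ± 0.58 (SE, n = 4 each), and 2.59 without background correction, which is also the difference in the authors' own processed values. On the linear scale the 11-month difference was 15.1-fold. The 7-month difference was 1.17 ± 0.58, with 0.51 without HD12-1 and 1.80 without GN2-2. The 2-month difference was -0.36 ± 0.58, with -0.68 without GN50-4, -0.02 without GN51-5 and 0.33 with eights of sample numbers as a factor.

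In cortex Plin4 read lower. It was not detected on any 2-month array of either genotype, or on 1 of 4 wild-type cortex arrays at each later age. At 7 months it read 8.42, 7.47, 8.97 and 6.01 in BACHD-ΔN17 cortex, against 7.94, 6.78, 7.70 and 5.32 in wild-type cortex. At 11 months it read 8.22, 8.05, 9.60 and 9.81 in BACHD-ΔN17 cortex, against 5.22, 5.89, 5.93 and 6.24 in wild-type cortex. Only the 11-month groups stood apart in cortex, by 3.10 ± 0.52 (SE), or 1.53 without background correction. The wild-type values there lay near the detection floor (log2 5.62 to 6.17 over the arrays), so this size is not exact. Because the 2-month arrays lay at the background, only lower bounds are given for the rise from 2-month BACHD-ΔN17 cortex. The level was at least 8.45-fold higher in 11-month BACHD-ΔN17 cortex and at least 3.67-fold higher in the 7-month BACHD-ΔN17 group. Both bounds hold for values after background correction.

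Depp1, a FoxO-induced gene tied to autophagy, was detected on all 48 arrays. In striatum at 7 months it read 9.56, 9.36, 9.03 and 8.11 in BACHD-ΔN17 mice, against 8.16, 8.63, 9.04 and 7.01 in wild-type mice. In cortex at 7 months it read 9.64, 9.46, 8.51 and 8.60 in BACHD-ΔN17 mice, against 8.11, 8.48, 8.59 and 7.72 in wild-type mice. These groups overlapped, with 8.51 as the lowest BACHD-ΔN17 value in cortex and 8.59 as the highest wild-type value. In striatum at 11 months it read 9.83, 8.09, 9.98 and 10.35 in BACHD-ΔN17 mice, against 7.37, 7.54, 7.31 and 7.23 in wild-type mice. In cortex at 11 months it read 10.10, 8.36, 9.82 and 10.29 in BACHD-ΔN17 mice, against 7.72, 6.50, 7.20 and 6.66 in wild-type mice. Neither pair of 11-month groups overlapped, and mouse GN37-3 was the lowest BACHD-ΔN17 mouse in both regions. The differences were 2.20 ± 0.41 in striatum and 2.62 ± 0.36 in cortex (SE), or 1.47 and 1.66 without background correction. At 7 months they were 0.80 ± 0.41 and 0.83 ± 0.36, and at 2 months 0.07 ± 0.41 and 0.49 ± 0.36, with overlap in each case. With 1 mouse left out in turn the striatal values ran from 0.43 to 1.14 at 7 months and from -0.06 to 0.35 at 2 months, and the 2-month cortical value from 0.28 to 0.72.

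**Figure D1:**
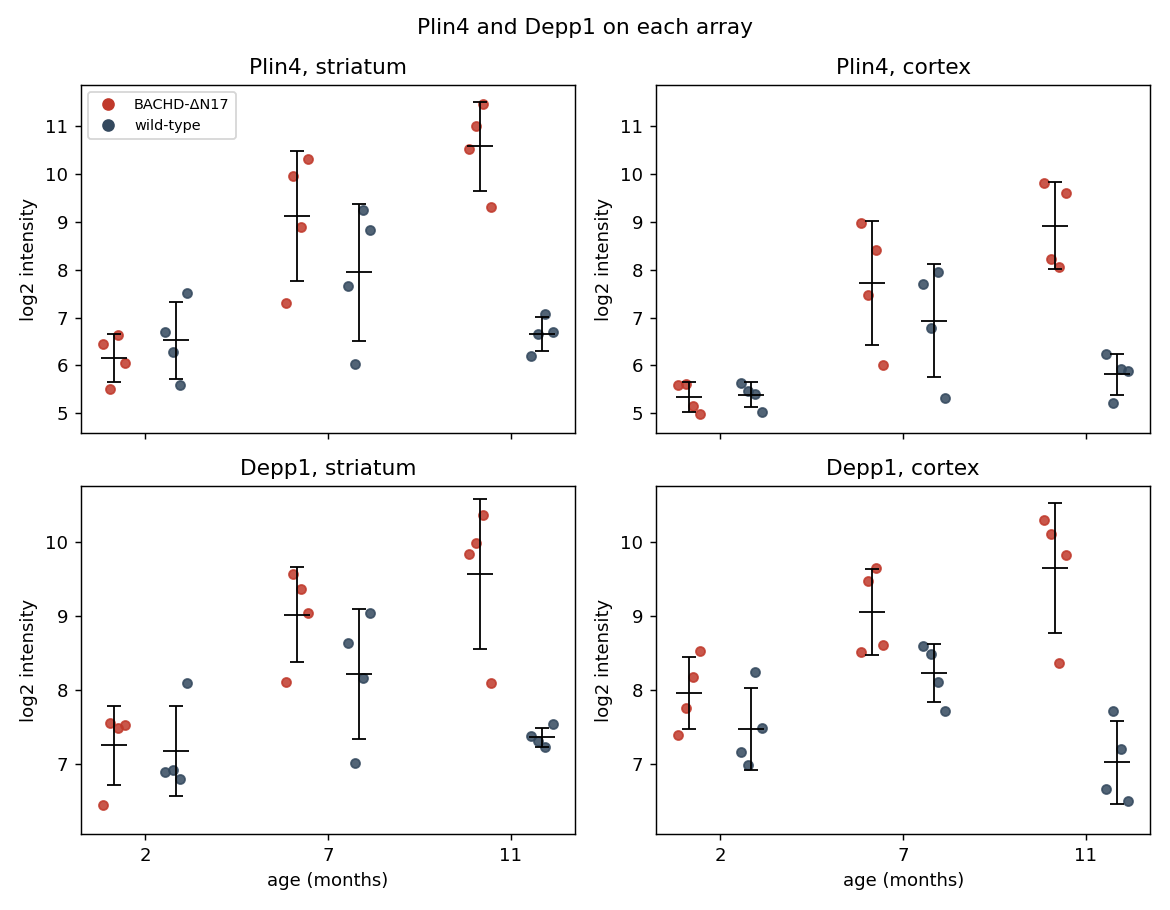
Log2 intensity of Plin4 (top) and Depp1 (bottom) on each array, in striatum (left) and cortex (right), by age in months. Red points are BACHD-ΔN17 mice, dark points to their right wild-type mice, and bars the mean ± SD of 4 mice. The 11-month groups do not overlap, and the 7-month Plin4 groups spread widely in both genotypes.

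Wild-type mice were also compared by age. The comparison of 7 with 2 months was chosen after seeing the data. Plin4 and Depp1 were chosen for a large and variable difference in these same arrays, so their p-values here are not independent of that choice. In 7-month minus 2-month wild-type mice the Plin4 difference was 1.42 ± 0.58 in striatum, and that of Depp1 was 1.03 ± 0.41 in striatum and 0.76 ± 0.36 in cortex (SE). In cortex no 2-month array detected Plin4, nor did that of HD12-1 among the 7-month wild-type mice, so no size or lower bound is given there. None of the 9 genes passed limma's test with Benjamini-Hochberg adjustment over all features for this step in either region, against 0.107% of features in striatum and 0.0181% in cortex. Unadjusted p was below 0.05 for 2 of the 9 in striatum, Plin4 and Depp1, against 6.96% of features. In cortex it was so for 3, the third being Cdkn1a with a difference of -0.65, against 4.07%. The other Cdkn1a probes gave unadjusted limma p of 0.143 and 0.158 there. From 2 to 11 months no member was called in wild-type mice, with a background of 0.134% in striatum and 0.0181% in cortex, and 0 of 9 had an unadjusted p below 0.05 in either region, against 9.40% and 8.17% of features. Between male and female mice 0 of 9 were called by the same test, against 0.125% of features in striatum and 0.0996% in cortex. For sex 0 of 9 had an unadjusted p below 0.05 in either region, against 4% and 3.62% of features.

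Among the other 7 genes, 5 were higher in BACHD-ΔN17 striatum at 11 months by limma's adjusted p: Pdk4, Angptl4, Tsc22d3, Ddit4 and Cdkn1a. Over all 11225 features of striatum 18.9% were called, 8.73% as higher. In cortex 3 of the 7 were higher, Sgk1, Fkbp5 and Ddit4, where 16.1% of 11047 features were called and 6.97% as higher. The median difference of the 7 was 0.71 in striatum and 0.58 in cortex, against 0.02 for all features in both. None of the 7 was called at 7 months, when 12.6% of features were called in striatum and 1.77% in cortex, or at 2 months, when 0.00891% and 0% were. At 7 months unadjusted p was below 0.05 for 1 of 7 in striatum, Cdkn1a (0.56), against 26.1% of features, and for 0 of 7 in cortex, against 11.1%. At 2 months it was so for 1 of 7 in striatum, Sgk1 (-0.37), against 4.88%, and 1 of 7 in cortex, Cdkn1a (-0.73), against 1.98%, both lower in BACHD-ΔN17 mice. The other Cdkn1a probes did not reach this, with unadjusted limma p of 0.207 and 0.242 in striatum at 7 months. In cortex at 2 months they gave 0.075 and 0.179.

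**Figure D2:**
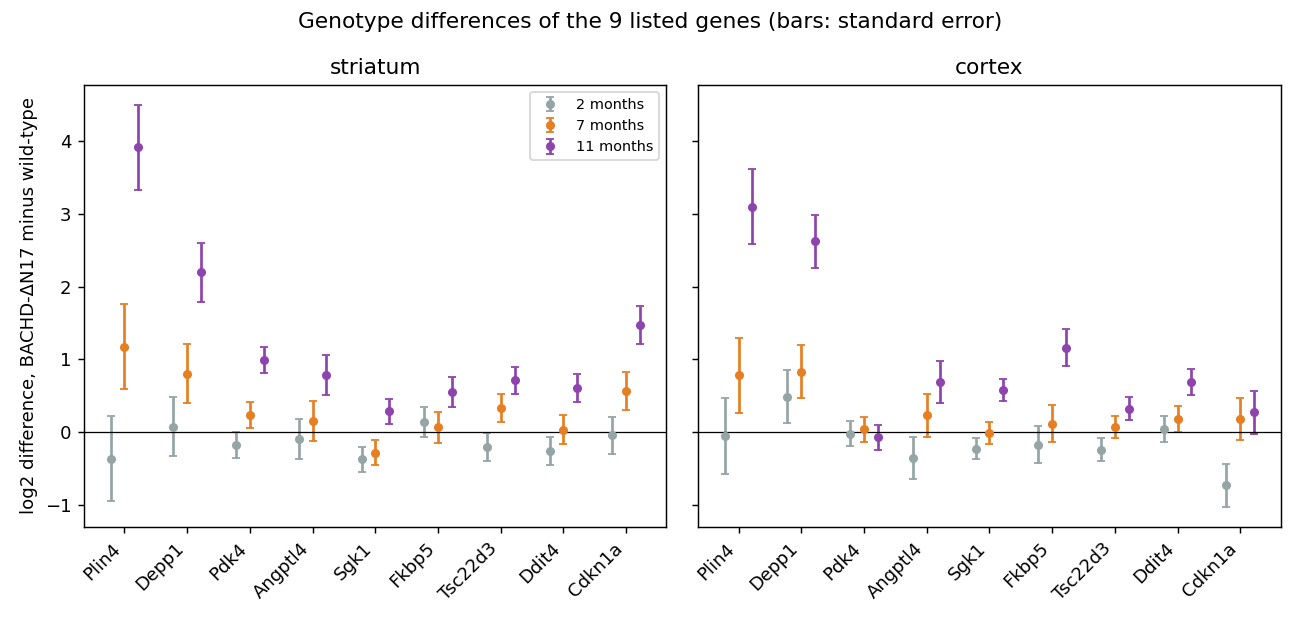
Log2 difference, BACHD-ΔN17 minus wild-type, of the 9 genes with a probe in striatum (left) and cortex (right) at 2, 7 and 11 months, with bars for the standard error. Plin4 and Depp1 reach 3.91 and 2.62, and the other 7 stay at or below 1.47.

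Pdk4, the kinase that switches off pyruvate dehydrogenase and so spares glucose, read 10.08, 9.94, 9.58 and 9.86 in BACHD-ΔN17 striatum at 11 months, against 8.92, 8.78, 8.70 and 9.09 in wild-type striatum. All 4 transgenic values lay above the wild-type ones, by 0.99 ± 0.18 (SE, limma adjusted p = 0.000182). In cortex it read 8.59, 8.19, 8.31 and 8.80 in BACHD-ΔN17 mice, against 8.78, 8.56, 8.51 and 8.32 in wild-type mice, and the groups overlapped (-0.07 ± 0.17, adjusted p = 0.823). Angptl4, a secreted inhibitor of lipoprotein lipase, read 7.58, 7.50, 8.07 and 8.81 in BACHD-ΔN17 striatum, against 7.32, 7.45, 7.47 and 6.57 in wild-type striatum. The groups did not overlap, though the highest wild-type and lowest BACHD-ΔN17 values lay close, and the difference was 0.79 ± 0.28 (limma adjusted p = 0.0456). This call was lost when GN34-1, NTN2-1, WT1 or NTN28-2 was left out, with adjusted p of up to 0.232. In cortex Angptl4 differed by 0.69 ± 0.29, which was not called (limma adjusted p = 0.107) and was called at 1.03 without GN37-3 (adjusted p = 0.00998).

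Sgk1, a kinase that glucocorticoids and growth signals control, was bright on every array. In cortex at 11 months it read 12.92, 12.93, 13.05 and 13.34 in BACHD-ΔN17 mice, against 12.35, 12.32, 12.59 and 12.66 in wild-type mice, without overlap. The difference was 0.58 ± 0.15 (SE, limma adjusted p = 0.00825). In striatum it was 0.28 ± 0.17 and not called (adjusted p = 0.286), and the lowest BACHD-ΔN17 and highest wild-type values were both 13.37. With scale normalization the striatal difference was -0.14 (adjusted p = 0.734). Fkbp5, a co-chaperone that dampens the glucocorticoid receptor, read 8.35, 8.96, 9.47 and 9.89 in BACHD-ΔN17 cortex, against 8.01, 7.85, 8.09 and 8.07 in wild-type cortex. All BACHD-ΔN17 values were higher, with GN36-1 the lowest, and the difference was 1.16 ± 0.25 (adjusted p = 0.00226). In striatum Fkbp5 read 8.89, 9.47, 10.05 and 10.02 in BACHD-ΔN17 mice, against 9.11, 9.07, 8.83 and 9.18 in wild-type mice. The groups overlapped through GN36-1, and the difference of 0.56 ± 0.21 was not called (limma adjusted p = 0.0608). Without GN36-1 it was 0.80 and called (adjusted p = 0.0045).

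Tsc22d3, also called GILZ, a glucocorticoid-induced protein that restrains inflammatory transcription, read 12.60, 12.57, 12.60 and 12.78 in BACHD-ΔN17 striatum at 11 months, against 11.62, 11.67, 12.06 and 12.35 in wild-type striatum. The groups did not overlap and differed by 0.71 ± 0.19 (SE, limma adjusted p = 0.00893). A second Tsc22d3 probe gave 1.01 (adjusted p = 0.0108). In cortex the difference was 0.32 ± 0.16 and not called (adjusted p = 0.165), and 0.52 without WT1, where it was called (adjusted p = 0.012). Ddit4, a stress-induced inhibitor of the growth kinase mTOR, read 10.43, 10.12, 10.10 and 10.27 in BACHD-ΔN17 cortex, against 9.55, 9.37, 9.74 and 9.49 in wild-type cortex, a gap without overlap of 0.69 ± 0.18 (limma adjusted p = 0.00896). In striatum it read 10.82, 10.27, 11.00 and 10.99 in BACHD-ΔN17 mice, against 10.01, 9.92, 10.35 and 10.37 in wild-type mice. These overlapped through GN37-3, and the difference of 0.61 ± 0.19 was called (adjusted p = 0.0286), but not without GN36-1, GN34-1, NTN2-1, NTN28-2 or GN34-5 (adjusted p of up to 0.105).

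Cdkn1a, the p21 inhibitor of the cell cycle and a target of p53 as well as of FoxO, read 10.15, 9.76, 10.97 and 10.93 in BACHD-ΔN17 striatum, against 8.88, 8.76, 9.25 and 9.04 in wild-type striatum. The groups stood apart by 1.47 ± 0.26 (SE, limma adjusted p = 0.000151), the largest difference of the 7, and the other Cdkn1a probes gave 1.20 and 1.42. In cortex it read 9.52, 9.35, 9.57 and 10.16 in BACHD-ΔN17 mice, against 9.14, 9.31, 9.13 and 9.91 in wild-type mice, with overlap (0.28 ± 0.29, adjusted p = 0.564). With every gene counted, 7 of the 9 had all BACHD-ΔN17 values above all wild-type values in striatum at 11 months, against 10.9% of features. In cortex 5 of 9 did so, against 6.55%. Both counts hold Plin4 and Depp1, which were chosen for this difference, so they are a description and no test. The other genes were Pdk4, Angptl4, Sgk1, Tsc22d3 and Cdkn1a in striatum, and Sgk1, Fkbp5 and Ddit4 in cortex. At 7 months 0 of 9 did so in either region, against 8% in striatum and 4.15% in cortex.

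**Figure D3:**
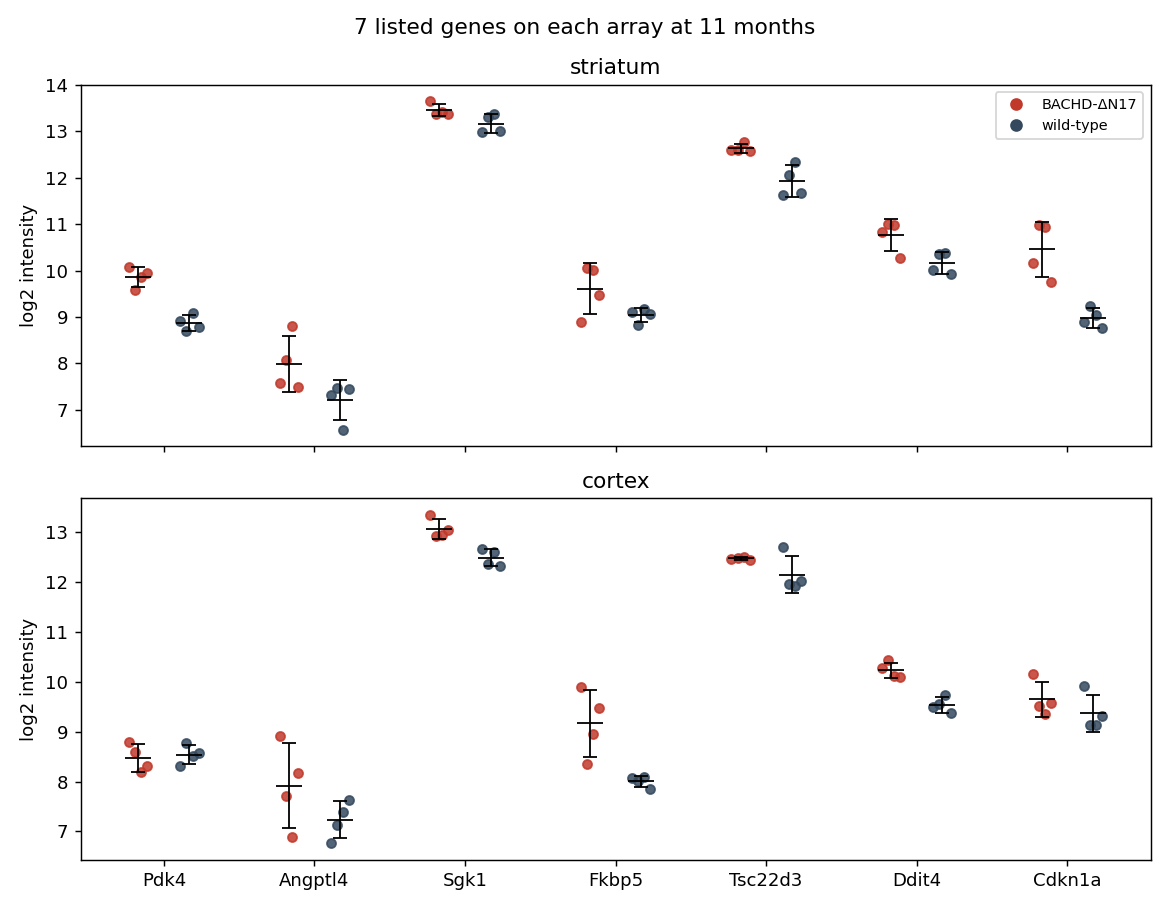
Log2 intensity of the 7 other genes on each 11-month array in striatum (top) and cortex (bottom). Red points are BACHD-ΔN17 mice, dark points to their right wild-type mice, and bars the mean ± SD of 4 mice. Cdkn1a and Pdk4 stand apart in striatum and overlap in cortex, and Fkbp5 stands apart in cortex and overlaps in striatum.

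Technical settings moved some of these calls. Scale normalization left 2 of the 7 called in striatum at 11 months, Pdk4 and Cdkn1a, and moved the median difference of all features to -0.17. The called features that were higher in BACHD-ΔN17 mice then made up 14.1% in striatum at 11 months, against 46.2% with quantile normalization, and 31.5% against 42.0% at 7 months. In cortex at 11 months they made up 28.3% against 43.2%, and Sgk1 was not called (0.44, limma adjusted p = 0.194). With consecutive eights of sample numbers as a factor the same pair stayed called, and the Cdkn1a difference was 0.84 (limma adjusted p = 0.0298), while that of Angptl4 was 0.27 (adjusted p = 0.604). Without the 8 arrays of lowest number, 1 of the 7, Fkbp5, was called in cortex (1.18, adjusted p = 0.0303), with 2 mice left in each 11-month group. Choroid plexus and ependymal markers, 7 with a value, summed to 9758 to 29310 intensity units in BACHD-ΔN17 striatum at 11 months and 4400 to 12485 in wild-type striatum. Microglia markers, 7 of 9 with a value, summed to 4636 to 6126 in BACHD-ΔN17 striatum and 6675 to 6870 in wild-type striatum. Of the 6 microglia markers tested 2 were called higher and 3 lower, and all 7 striatal neuron markers were lower. Of 8 astrocyte markers 2 were higher and 1 lower in striatum. Cortical excitatory markers summed to 3499 to 4186 in BACHD-ΔN17 striatum at 11 months and 660 to 2249 in wild-type striatum, with 1 of 6 called higher and 0 lower. In cortex at 11 months 4 of 6 cortical excitatory markers were lower, with summed levels of 22096 to 23956 in BACHD-ΔN17 mice and 30219 to 34556 in wild-type mice. There 2 of 8 astrocyte, 1 of 6 microglia and 4 of 7 striatal neuron markers were also lower. The part of these markers in the differences was not tested in either region.

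The difference between regions was itself tested within mice. At 11 months the genotype difference was larger in striatum than in cortex for Pdk4, by 1.06 ± 0.22, and for Cdkn1a, by 1.20 ± 0.24 (SE, limma adjusted p = 0.00248 and 0.00193). These are 2 of 7 genes, against 5.98% of all features. The values of Fkbp5 and Tsc22d3 were -0.60 ± 0.20 and 0.39 ± 0.13, neither called (adjusted p = 0.0712 and 0.0694). At 7 months 0 of 7 were called, against 1.91% of features, and 1 had an unadjusted p below 0.05, against 11.4%. With scale normalization Pdk4 was not called (0.84, adjusted p = 0.0501), and 24.9% of called features were higher in striatum, against 48.0% with quantile normalization. Without the 8 arrays of lowest number neither Pdk4 (1.28, adjusted p = 0.0837) nor Cdkn1a (1.10, adjusted p = 0.111) was called, and the other Cdkn1a probes gave 1.04 and 1.23 with adjusted p of 0.122 and 0.0557.

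The step in the genotype difference between 7 and 11 months was not called for any of the 7 genes in striatum, where 0% of features were called, or cortex, where 0.163% were. Unadjusted p was below 0.05 for 4 of 7 in striatum, against 6.96% of features, and 2 of 7 in cortex, against 7.64%. In wild-type mice 5 of the 9 genes were higher in striatum than in cortex: Fkbp5 by 0.94 ± 0.08, Ddit4 by 0.72 ± 0.07, Pdk4 by 0.69 ± 0.09, Sgk1 by 0.68 ± 0.05 (SE) and Plin4, for which no exact size is given because no 2-month cortex array detected it. Cdkn1a and Tsc22d3 were lower in striatum, by -0.37 ± 0.10 and -0.26 ± 0.05. In all 7 of 9 were called between regions, against 55.2% of features. Cdkn1a was not called without the replicate block (adjusted p = 0.0653) or with another of its probes (-0.26, adjusted p = 0.184).

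Whether the other genes followed Plin4 and Depp1 was read from values centred on group and sex, so that genotype and age do not enter. In striatum all 7 had a positive slope on Plin4, and Ddit4 and Cdkn1a were the closest. Pearson's r with Plin4 over 24 mice was 0.73 for Ddit4 (Spearman's rho 0.70, permutation p = 0.00107 and 0.00139) and 0.71 for Cdkn1a (rho 0.70, p = 0.00053 and 0.00058). It was 0.66 for Sgk1 (rho 0.67, permutation p = 0.004 and 0.00464). Leaving out HD12-1 and GN2-2, the mice farthest from the median of Plin4, gave r of 0.67, 0.68 and 0.55. An r as high was reached by 0.0802%, 0.178% and 0.383% of features.

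With all features adjusted together, 0 of these 7 slopes on Plin4 passed in striatum, where 0.0267% of features did, and 6 of 7 had an unadjusted p below 0.05 with a positive slope, against 2.51% of features. In cortex 1 of 7 passed, Fkbp5, with a slope of 0.36 ± 0.07 log2 units for each log2 unit of Plin4 (SE, limma adjusted p = 0.0447), where 0.0905% of features did. There 5 of 7 had a positive slope at an unadjusted p below 0.05, against 3.46%. Among them were Cdkn1a and Tsc22d3, whose other probes did not reach this. With those probes unadjusted limma p was 0.212 and 0.195 for Cdkn1a and 0.14 for Tsc22d3. Fkbp5 had r = 0.77 with Plin4 in cortex (rho 0.76, permutation p = 0.00183 and 0.00461) and 0.73 without GN2-2 and HD12-1. Its call was lost without any 1 of 18 of the 24 mice (adjusted p of up to 0.29) and under 8 of the other settings, among them the 16 mice of 7 and 11 months alone, a fit without the 2-month arrays that did not detect Plin4. Pdk4 went the other way in cortex, with r = -0.30 (rho -0.31, permutation p = 0.228 and 0.216).

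The relation with Plin4 was also read within each genotype, and the differences between genotypes were not tested. For Cdkn1a in striatum r was 0.94 in the 12 BACHD-ΔN17 mice and 0.31 in the 12 wild-type mice. In cortex these were 0.82 and 0.18. Ddit4 in striatum had 0.78 and 0.69, and Sgk1 in striatum 0.61 and 0.72.

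Depp1 was examined in the same way. Ddit4 had r = 0.81 with Depp1 in striatum (rho 0.76, permutation p = 0.00011 and 0.00017), 0.75 without GN37-3 and HD12-1, and a slope of 0.38 ± 0.06 (SE, limma adjusted p = 0.0193), the 1 of 7 called, against 0.0178% of features. It was lost without any 1 of 6 mice: GN2-2, NTN28-2, GN51-5, GN2-3, HD12-1 or GN37-3 (adjusted p of up to 0.621). A positive slope at an unadjusted p below 0.05 was found for 3 of 7 in striatum, against 4.59% of features, and for 2 of 7 in cortex, against 1.7%. Centred Depp1 in cortex had r = -0.62 with the number of probes detected on the array, and the part of this in the cortical relations was not tested. In cortex 0 of 7 passed the adjusted test, as did 0% of features. Plin4 and Depp1 themselves had r = 0.70 in striatum (rho 0.57, permutation p = 0.00322 and 0.02) and 0.19 in cortex (rho 0.04, permutation p = 0.458 and 0.883). The pair was chosen for a large and variable difference, so these p-values are not independent of that choice.

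**Figure D4:**
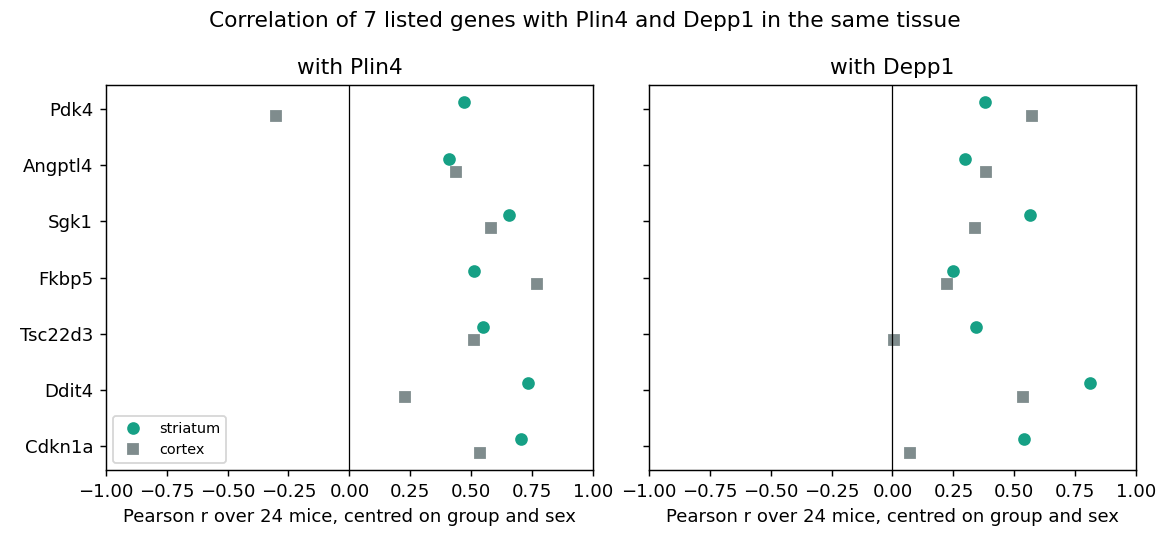
Pearson r of 7 genes with Plin4 (left) and Depp1 (right) in the same tissue over 24 mice, after centring on group and sex. Circles are striatum and squares cortex. Every r with Plin4 is positive in striatum, from 0.41 for Angptl4 to 0.73 for Ddit4, and Pdk4 in cortex is at -0.30.

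The same mouse gave a second, separate array. Plin4 in striatum and cortex had r = 0.93 over 24 mice (rho 0.90, permutation p = 1e-05 for both, the smallest the permutations can give), and 0.88 without GN2-2 and HD12-1. No 2-month cortex array detected Plin4, and in wild-type cortex 3 of 4 arrays did at 7 and at 11 months. Part of the cortical Plin4 values, that of HD12-1 among them, are therefore background readings. The median feature had r = 0.12, and 0.0374% of 10699 features reached the value of Plin4. It was 0.81 for Tsc22d3, 0.80 for Sgk1 and Depp1, 0.79 for Angptl4, 0.73 for Fkbp5, 0.68 for Ddit4 and 0.66 for Cdkn1a, values that 0.159% (Tsc22d3) to 1.15% (Cdkn1a) of features reached. Permutation p of r ran between 0.00011 and 0.00451 for these 7. Pdk4 had 0.23 (permutation p = 0.343), which 33.9% of features reached. In all 39 relations were computed, and their permutation p-values are not adjusted for that number. Plin4 and Depp1 were chosen for a large and variable difference, so their p-values and shares here are not independent of that choice.

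Plin4 of one region was then set against genes of the other, where the 2 values come from different arrays. Cortical Plin4 holds the same background readings here, among them all 2-month values. Striatal genes on cortical Plin4 gave 1 of 7 called, Cdkn1a with a slope of 0.39 ± 0.07 (SE, limma adjusted p = 0.0206), against 0.0713% of features, and 5 of 7 with a positive slope at an unadjusted p below 0.05, against 2.39%. With mouse as a replicate block Cdkn1a was not called (adjusted p = 0.168), nor without NTN2-1, GN37-3, GN2-1, NTN28-2 or GN2-2 (adjusted p of up to 0.447). The other Cdkn1a probes gave slopes of 0.34 and 0.43, neither called (limma adjusted p = 0.999 and 0.291). Cortical genes on striatal Plin4 gave 0 of 7 called, against 0.0272%, and 5 of 7 unadjusted, against 2.07%. Cdkn1a was among the latter, but its other probes gave unadjusted limma p of 0.494 and 0.248. On Depp1 of the other region 0 of 7 were called in striatum, against 0.0178%, and 0 of 7 in cortex, against 0.00905%, with 1 of 7 and 4 of 7 unadjusted, against 3.63% and 1.26%. Plin4 itself had a slope of 1.08 ± 0.10 on cortical Plin4 (limma adjusted p = 2e-07). That p-value is not independent of the choice of Plin4 for its variable difference.

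**Figure D5:**
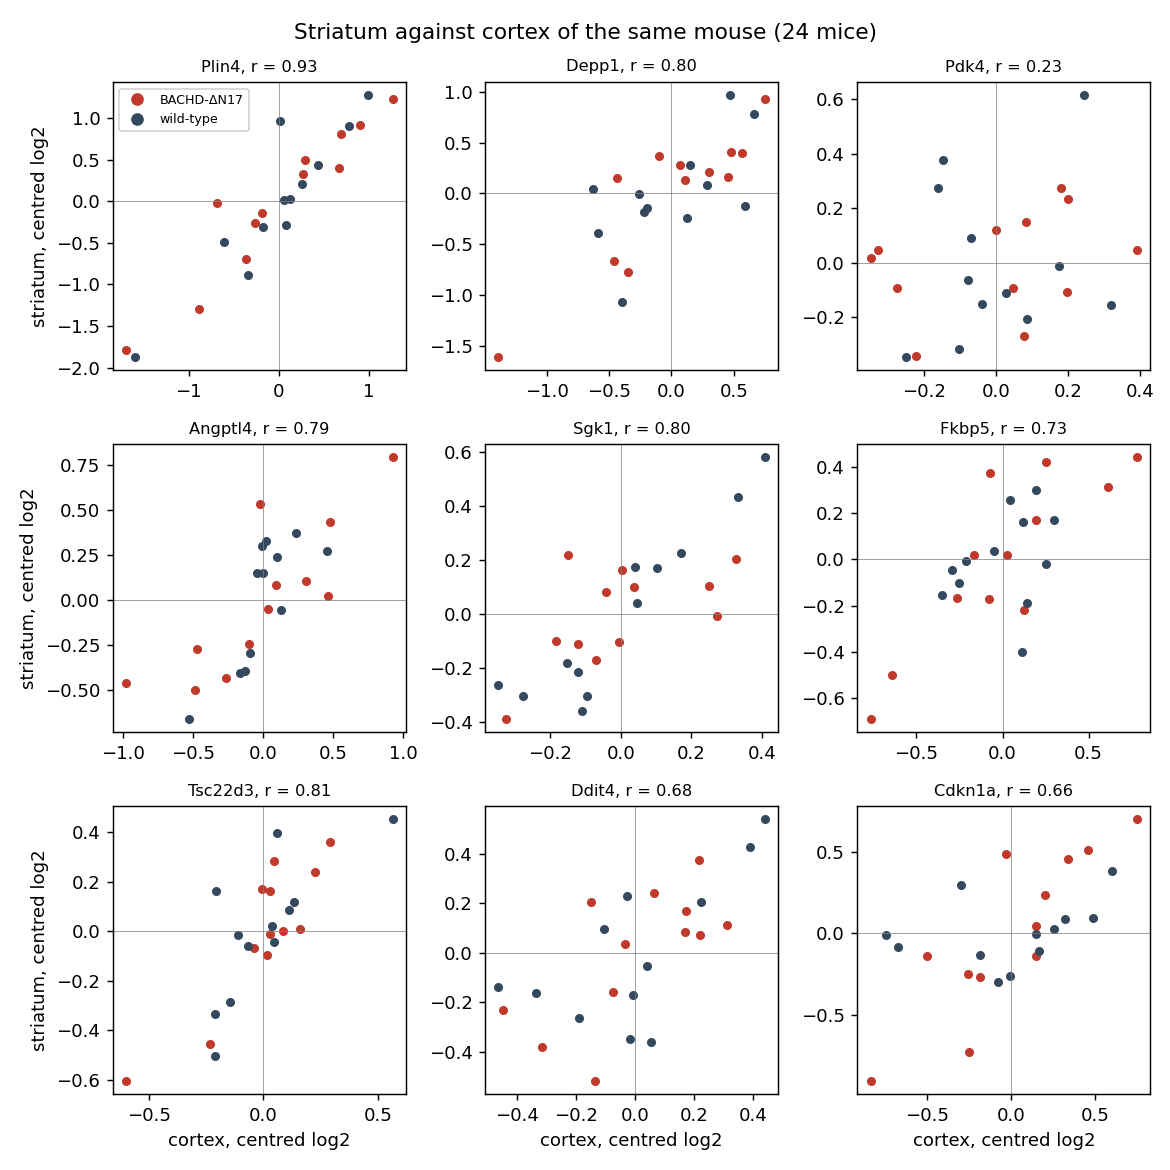
Striatal against cortical log2 values of each gene, centred on group and sex, 1 point for each of 24 mice, red for BACHD-ΔN17 and dark for wild-type. Plin4 lies closest to a line (r = 0.93) and Pdk4 shows the weakest relation (r = 0.23).

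Summed markers of other cell types moved with Plin4 to different degrees. Over 24 mice r with Plin4 was 0.13 in striatum and -0.02 in cortex for blood cell markers, and 0.07 and -0.07 for endothelial markers. Microglia markers had -0.31 in striatum and -0.53 in cortex, and choroid plexus and ependymal markers 0.24 and 0.03. With Depp1, microglia markers had -0.46 in striatum and -0.42 in cortex, choroid plexus and ependymal markers 0.41 and 0.35, and astrocyte markers 0.12 and 0.55. The part of these markers in the relations was not tested.

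The named genes most like Plin4 over both regions, ranked by the lower of the 2 r values over 24 mice, were Mfsd2a, a lipid transporter of the blood-brain barrier (0.91 in striatum, 0.78 in cortex), and Sult1a1, a sulfotransferase (0.83 and 0.76). Etnppl (0.69 and 0.89), Rtp1 (0.67 for both), C2 (0.77 and 0.64) and Map3k6 (0.75 and 0.61) followed. For Depp1 they were Cebpb (0.66 and 0.63), Zkscan1 (0.55 and 0.64), Cpt2 (0.55 and 0.64), Itpk1 (0.55 for both), Smarcd2 (0.69 and 0.54) and Kndc1 (0.54 and 0.77).

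Other genes of these pathways were called in both directions at 11 months by limma's adjusted p, which over all features called 18.9% in striatum and 16.1% in cortex. Of 19 other glucocorticoid-induced genes tested in striatum, 5 were higher in BACHD-ΔN17 mice, the largest Sult1a1 (1.33), Map3k6 (1.03) and Nfkbia (0.98), and 2 were lower. Those were Per1 (-0.79) and Dusp1 (-0.69), named after their values were seen, and both were also lower in cortex (-0.65 and -0.67), where 2 of 19 were higher and 2 lower. The counts of other FoxO targets were near that share in striatum and below it in cortex. Of 19 in striatum 2 were higher and 2 lower, among them Txnip (0.83), the atrophy ligase gene Fbxo32 (-0.77) and Sesn3 (-0.74). In cortex 0 of 18 were higher and 1 lower, Gadd45b (-0.68).

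Of 16 other lipid droplet genes in striatum 3 were higher and 3 lower, among them the triglyceride lipase gene Pnpla2 (0.92), the triglyceride synthesis gene Dgat2 (-0.80) and Plin3 (0.77). In cortex 3 of 16 were higher and 3 lower, among them Cidea (0.70), Dgat2 (-0.45) and Lpl (-0.45). Of the fatty acid oxidation and PPAR target genes 3 of 10 were higher in striatum, Cpt2 (0.42), Acot1 (0.41) and Acadm (0.29), and 1 of 11 in cortex, Slc25a20 (0.32), with none lower. Of the receptors and transcription factors 2 of 7 were lower in striatum, Foxo6 (-1.05) and Foxo1 (-0.79). In cortex Hif1a was higher (0.53) and Hsd11b1, which regenerates active glucocorticoid, lower (-0.68), of 6 tested. Of 12 other p53 targets 2 were higher and 3 lower in striatum, and 1 higher and 1 lower in cortex. Of the hypoxia and integrated stress genes 2 of 11 were higher and 1 lower in striatum, and 1 of 10 higher and 1 lower in cortex.

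The same lists, chosen with earlier results of these data known, were set against Plin4 and Depp1 from mouse to mouse. Sult1a1 and Map3k6 of the glucocorticoid-induced list were also among the genes named above as most like Plin4. On Plin4, 8 of the 19 glucocorticoid-induced genes had a positive slope at an unadjusted p below 0.05 in striatum, against 2.51% of features, and 5 of 19 in cortex, against 3.46%. On Depp1 in striatum 4 of 19 did, against 4.59%, and in cortex 1 of 19, against 1.7%. Of these genes Sult1a1 passed the adjusted test on Plin4, with slopes of 0.48 ± 0.07 in striatum (SE, limma adjusted p = 0.00191) and 0.46 ± 0.09 in cortex (adjusted p = 0.0298). Of 16 lipid droplet genes 3 had such an unadjusted slope on Plin4 in striatum and 1 in each of the other 3 fits on Plin4 or Depp1 of the same tissue. On Depp1 in striatum, Pnpla2 passed the adjusted test (0.34 ± 0.06, limma adjusted p = 0.0193). Over the other 5 lists, 0 genes passed on Plin4 or Depp1 in either region by the same test, while between 0 and 2 genes of a list had a positive slope at an unadjusted p below 0.05.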

How the data were processed

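RNA of striatum and cortex from 24 mice was measured on 48 Illumina MouseRef-8 arrays. Per the labels' protocols, 100 ng of total RNA was amplified and labelled with biotin. The authors deposited probe intensity values without normalization and a detection p-value for each, and a second deposited table of log2 values with no stated method. Over 1233456 values the authors' log2 table differed from quantile-normalized log2 intensities without background correction by at most 5e-09, so both stand for 1 setting. Probes were named from the platform annotation (23978 of 25697 with 1 symbol, 1719 with none).

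Intensities were background-corrected and quantile-normalized with neqc (limma 3.58.1, R 4.3.3, offset 16). The brightest probe of each symbol was kept, and features detected at p below 0.05 on at least 4 arrays of a region were tested. limma was fitted to each region with 6 groups and sex, with Benjamini-Hochberg adjustment over all features at 0.05. Slopes added Plin4 or Depp1 as a covariate, and regions were compared within mice, since 1 animal gave both. Over mice, the correlation of both regions' deviations had a median of 0.14 (from -0.20 to 0.51). Replicate numbers in the labels run over both genotypes and pair none. Permutations numbered 100000 within groups. The genotype fit within a region and the slope fit on Plin4 of the same region were tested on simulated data. No such test is reported for the fits within mice, with a replicate block or without pairing, or for the permutations.

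Named genes were the listed members, at most 3 called genes of a list with the largest differences, and the 6 most alike to Plin4 and to Depp1. The members and lists were chosen with earlier results of these data known. Alternatives tried were other background, normalization, offset, filter, sex and sample-number settings, mouse subsets and each array left out. The number of arrays limits the precision.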

Additional observations from a re-analysis of the deposited data

Results flagged for a closer look

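Looking for a single mouse far from the other 3 of its group, 10 of 108 groups of 4 stood out, where chance gives about 1 in 20. Depp1 was low in GN50-1 (6.45 in 2-month BACHD-ΔN17 striatum, others from 7.49) and high in GN51-5 (8.09 in 2-month wild-type striatum, others up to 6.92). Sgk1 was low in GN2-2 (12.72 in 7-month BACHD-ΔN17 striatum), the mouse that was also low in Plin4. Fkbp5 was high in GN1-1 (9.47 in 7-month wild-type striatum) and low in GN50-2 (7.87 in 2-month wild-type cortex). In GN1-3, a 7-month wild-type mouse, Cdkn1a (8.03) and Angptl4 (6.87) were low in cortex. Tsc22d3 was high in NTN28-2 (12.78 in 11-month BACHD-ΔN17 striatum) and in WT1 (12.70 in 11-month wild-type cortex), and Angptl4 was low in WT1 (6.57 in 11-month wild-type striatum).

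The genotype difference at 11 months differed between striatum and cortex for Pdk4, by 1.06, and for Cdkn1a, by 1.20, by a test of the difference itself within mice (limma adjusted p = 0.00248 and 0.00193). This comparison was chosen after seeing the data. Neither call held without the 8 arrays of lowest number, and that of Pdk4 was lost with scale normalization. The other Cdkn1a probes were not called.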

How the results depend on the processing

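Apart from leaving out single arrays, 3 of 422 recomputed values of single genes had the other sign, none of them a call: Sgk1 in striatum (-0.14 with scale normalization), and Pdk4 in cortex (0.05) and 2-month striatal Plin4 (0.33) with eights of sample numbers as a factor. With 1 array left out the sign also turned for 2-month Depp1 in striatum (down to -0.06), 2-month Plin4 in cortex (up to 0.08) and 11-month Pdk4 in cortex (up to 0.05). Of 5 genes called in striatum at 11 months, 2 were called with scale normalization and 2 with eights of sample numbers as a factor, and leaving out each array gave 3 to 5. Leaving out an array at 7 months in striatum gave 0 to 1. Of 3 called in cortex at 11 months, 1 was called without the 8 lowest sample numbers, where the 2 differences between regions at 11 months became 0 (2 to 4 with single arrays left out). The count of slopes on Plin4 in striatum was 0, and 1 without background correction, with the authors' values, with eights as a factor, in BACHD-ΔN17 mice alone and in 7- and 11-month mice alone (0 to 1 with arrays left out). In cortex it was 1, and 0 with scale normalization, with no filter, without the 8 lowest numbers, in each genotype alone, in 7- and 11-month or 2- and 7-month mice alone and without the 2 farthest mice (0 to 1). For cortical Plin4 in striatum it was 1, and 0 with eights, without the 8 lowest numbers, with mouse as a replicate block, in wild-type mice, in 2- and 7-month mice and without the 2 farthest mice, but 2 in 7- and 11-month mice (0 to 1). For Depp1 in striatum it was 1, and 0 with eights, in each genotype alone, in both age subsets and without the 2 farthest mice (0 to 1). The cause was not tested. The mouse as a replicate block changed no other call. Region calls numbered 7, and 6 with no replicate block. The age subsets, the comparisons of 7 with 2 and of 11 with 7 months, the genotype difference between regions and the unpaired region fit were chosen after seeing the data. Eights as a factor were not run for fits within mice.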
